A study of Mus musculus with 6 samples.

Results

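The solute carrier family 26 (SLC26) genes encode anion exchangers of the plasma membrane. The 10 members described here are Slc26a1, Slc26a2, Slc26a3, Slc26a4, Slc26a5, Slc26a6, Slc26a7, Slc26a8, Slc26a10 and Slc26a11. They were taken by gene symbol from the GENCODE M21 annotation of the mouse genome (GRCm38), and are 10 of the 35523 genes to which the deposited transcripts could be matched. Their transcripts number 53 of the 117135 in the deposited tables. The forebrain was compared at P20 (postnatal day 20) between 3 Slc13a4+/- mice (genotype label Nas2Del +/- Het, animals Nas2Del_Het_1024, Nas2Del_Het_1025 and Nas2Del_Het_1027) and 3 wild-type mice (animals Nas2Del_WT_1016, Nas2Del_WT_1018 and Nas2Del_WT_1026). All 6 mice were of the C57BL/6 strain. The heterozygotes carry a deleted allele of Slc13a4 in every cell. They were bred from heterozygous males and wild-type females, with littermates as controls. The labels and methods name neither the litter nor the sex of a mouse.

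SLC26 proteins exchange 1 anion for another across the membrane, and the members differ in which anions they carry. Slc26a1, Slc26a2 and Slc26a11 are known as sulfate transporters. Slc26a3, Slc26a4, Slc26a6 and Slc26a7 mostly carry chloride, bicarbonate, iodide or oxalate. Slc26a5 is a motor protein and Slc26a8 belongs to sperm. Slc13a4, the gene deleted in these mice, encodes a sodium-coupled sulfate transporter of another family that is found in the choroid plexus and pia mater. The question set to the data was at which level each SLC26 gene was present in the forebrain, through which transcripts, and whether its level differed in the Slc13a4+/- mice.

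Slc13a4 itself was measured at 5.86 ± 0.62 CPM (counts per 1000000 counts, scaled by TMM) in Slc13a4+/- mice and 9.35 ± 1.10 CPM in wild-type mice (SD, n = 3 each), and the groups did not overlap. The log2 fold change of Slc13a4 was -0.67 (SE 0.11). The adjusted p was 0.499 by edgeR and 0.0024 by DESeq2. The total expected counts were 69260309 to 78070813 in Slc13a4+/- mice and 60340337 to 80410582 in wild-type mice. The forebrain label fitted the markers. The 10 forebrain genes summed to 982 to 1017 TPM in Slc13a4+/- mice and 890 to 1006 TPM in wild-type mice. The 10 hindbrain genes summed to 6.71 TPM in Slc13a4+/- mouse Nas2Del_Het_1024 and to between 1.91 and 3.18 TPM in each other mouse. Wild-type mouse Nas2Del_WT_1026 stood apart from the rest on the first principal component, which held 39.6% of the variance. Its score was -27.7, wild-type mouse Nas2Del_WT_1016 was at the other end with 20.2, and the 3 Slc13a4+/- mice lay between them. The Y-linked gene Ddx3y was at 105 CPM in wild-type mouse Nas2Del_WT_1016 and at most 0.033 CPM in each other mouse, so the sex of the mice was not the same throughout. Of the cell types that the whole forebrain holds, the 12 choroid plexus markers summed to 1122 to 1255 TPM in Slc13a4+/- mice and 1308 to 1322 TPM in wild-type mice, with 12 of 12 log2 fold changes below 0. The 10 ependymal markers summed to 45.7 to 52.2 TPM in Slc13a4+/- mice and 58.9 to 63.4 TPM in wild-type mice, with 10 of 10 below 0. The 10 microglial markers summed to 471 to 477 TPM in Slc13a4+/- mice and 496 to 525 TPM in wild-type mice, also with 10 of 10 below 0. The 9 tested astrocyte markers also did not overlap, with sums of 2659 to 2725 TPM in Slc13a4+/- mice and 2750 to 2841 TPM in wild-type mice and 8 of 9 log2 fold changes below 0. The 12 markers of pia and meninges overlapped, at 131 to 136 TPM in Slc13a4+/- mice and 124 to 144 TPM in wild-type mice, with 6 above 0 and 6 below. Of the 10 endothelial markers 3 were above 0 and 7 below, and of the 10 neuronal markers 5 were above and 5 below. The part of these shifts in the values of the SLC26 genes was not tested. Fewer cells of a type and less RNA per cell cannot be told apart in bulk tissue.

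All 10 SLC26 genes were detected in every mouse, and they covered a range of more than 2 orders of magnitude in TPM (transcripts per 1000000 transcripts, in which counts are divided by the effective length of the transcript). Slc26a6 was the highest at 19.3 ± 1.5 TPM (SD over 6 mice) and Slc26a5 the lowest at 0.147 ± 0.037 TPM. Only Slc26a6 lay above the median of 16.2 TPM over the 17096 genes that had enough counts to be tested, with 53.9% of these genes below it. This place rests on its short transcript Slc26a6-203, described below. Without that transcript Slc26a6 averaged 7.47 TPM, below the median, and the family covered less than 2 orders of magnitude. The other members lay in the lower part of that distribution, where Slc26a2 had 28.5% of the tested genes below it and Slc26a5 1.56%.

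Among the sulfate transporters, Slc26a2 had the highest level. Slc26a2 supplies sulfate for the sulfation of cartilage proteoglycans, and its loss causes diastrophic dysplasia in humans. It lies on chromosome 18 (GRCm38 61192919 to 61211612, minus strand) and was at 4.18, 4.38 and 3.84 TPM in Slc13a4+/- mice, against 3.83, 3.63 and 3.84 TPM in wild-type mice. Slc26a11, a sodium-independent sulfate transporter (chromosome 11, 119355557 to 119381079, plus strand), was at 3.74, 3.82 and 3.59 TPM in Slc13a4+/- mice and 3.76, 3.76 and 3.39 TPM in wild-type mice. The mice of both groups lay within a narrow band for these genes, although the lowest Slc13a4+/- mouse was marginally above the highest wild-type mouse for Slc26a2. Slc26a2 was above Slc26a11 in 5 of 6 mice. The ratio between them was 1.07, which did not differ from 1 beyond the spread between mice (exact sign-flip permutation test over 6 mice, two-sided p = 0.09375, adjusted 0.105). Slc26a1, the sulfate and oxalate exchanger of liver and kidney (chromosome 5, 108669878 to 108675569, minus strand), was lower. It was at 0.795, 0.884 and 0.679 TPM in Slc13a4+/- mice and 0.80, 0.705 and 0.736 TPM in wild-type mice.

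The exchangers of chloride and bicarbonate spread over most of the range of the family. Slc26a6, which exchanges chloride for oxalate and bicarbonate in kidney and gut (chromosome 9, 108853283 to 108913049, plus strand), was at 18.3, 19.6 and 22.0 TPM in Slc13a4+/- mice. In wild-type mice it was at 19.0, 19.2 and 17.8 TPM. Slc26a4, or pendrin, the exchanger of chloride, iodide and bicarbonate of the inner ear and thyroid (chromosome 12, 31519827 to 31559969, minus strand), was at 1.84, 2.15 and 1.97 TPM in Slc13a4+/- mice and 1.58, 1.59 and 1.80 TPM in wild-type mice. For pendrin each Slc13a4+/- mouse was above each wild-type mouse when all its transcripts were summed. Its coding form Slc26a4-201 alone overlapped, at 1.84, 1.95 and 1.70 TPM in Slc13a4+/- mice and 1.42, 1.59 and 1.80 TPM in wild-type mice. The rest was the noncoding Slc26a4-202 of 385 bases, with at most 2.22 expected counts in a mouse. Slc26a2 and Slc26a4 were the 2 members whose groups did not overlap in TPM, which was seen in 14.7% of all tested genes, and in CPM both overlapped. Slc26a7, a chloride and bicarbonate exchanger of kidney and stomach (chromosome 4, 14502430 to 14621805, minus strand), was at 0.896, 1.55 and 1.10 TPM in Slc13a4+/- mice and 1.19, 1.16 and 0.617 TPM in wild-type mice. Its lowest value belonged to wild-type mouse Nas2Del_WT_1026 and its highest to Slc13a4+/- mouse Nas2Del_Het_1025. Slc26a3, the chloride and bicarbonate exchanger of the colon (chromosome 12, 31390871 to 31473917, plus strand), was at 0.249, 0.253 and 0.152 TPM in Slc13a4+/- mice and 0.279, 0.212 and 0.201 TPM in wild-type mice. These values rest on 15 to 26 counts in a mouse.

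Of the members with other roles, Slc26a8 was the highest. Slc26a8 is a testis anion transporter needed for sperm motility (chromosome 17, 28637783 to 28690233, minus strand), and it was at 2.11, 2.92 and 2.32 TPM in Slc13a4+/- mice and 2.40, 2.17 and 2.38 TPM in wild-type mice. Slc26a10 (chromosome 10, 127171393 to 127180645, minus strand), whose human counterpart is classed as a pseudogene, was at 1.64, 1.39 and 1.65 TPM in Slc13a4+/- mice and 1.71, 1.61 and 1.79 TPM in wild-type mice. Slc26a5, or prestin, the motor protein of the outer hair cells of the ear (chromosome 5, 21810655 to 21865604, minus strand), had 16, 20 and 14 counts in Slc13a4+/- mice and 11, 9 and 15 counts in wild-type mice. At that depth Slc26a5 was present in each library but with little precision.

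In order of mean TPM, the genes ran Slc26a6, Slc26a2, Slc26a11, Slc26a8, Slc26a4, Slc26a10, Slc26a7, Slc26a1, Slc26a3 and Slc26a5. Of the 9 pairs of neighbours in this order, 5 had the same order in 6 of 6 mice. These were Slc26a6 over Slc26a2 (4.89-fold), Slc26a11 over Slc26a8 (1.55-fold), Slc26a8 over Slc26a4 (1.31-fold), Slc26a1 over Slc26a3 (3.47-fold) and Slc26a3 over Slc26a5 (1.54-fold). Each gave p = 0.031 in the exact sign-flip permutation test, which is the smallest that 6 mice allow, and an adjusted p of 0.05625 over the 9 pairs. The other 4 pairs had the opposite order in 1 or 2 mice. Besides Slc26a2 and Slc26a11, these were Slc26a10 above Slc26a7 in 5 of 6 mice (exact p = 0.0625, adjusted 0.094), Slc26a7 above Slc26a1 in 5 of 6 (exact p = 0.094, adjusted 0.105) and Slc26a4 above Slc26a10 in 4 of 6 (exact p = 0.219, adjusted 0.219). The order was taken from the same values that were tested. The place of Slc26a8 above Slc26a4 holds for the sum over all transcripts, to which short noncoding transcripts of Slc26a8 add. The main coding form Slc26a8-201 alone was at 1.19 to 1.30 TPM, below Slc26a4-201 at 1.42 to 1.95 TPM.

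**Figure D1:**
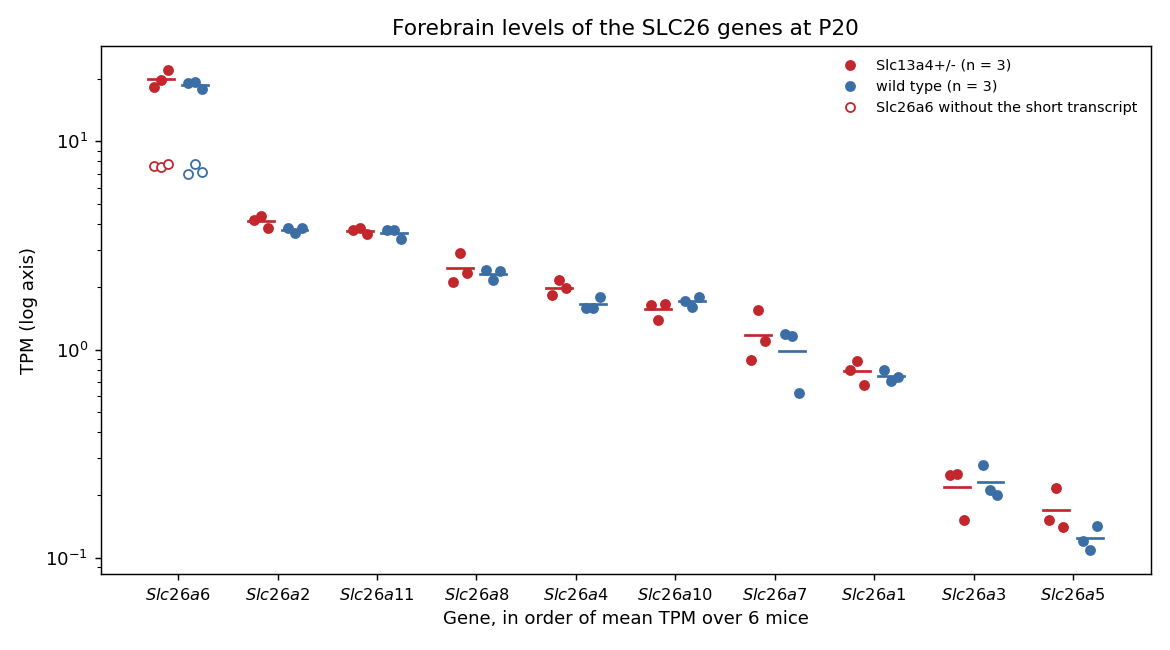
TPM of the 10 SLC26 genes in each mouse, on a log axis, in order of mean TPM, with Slc13a4+/- mice (red) left of wild-type mice (blue) and a line at each group's mean. Slc26a6 sits between 17.8 and 22.0 TPM, and still above Slc26a2 when its transcript Slc26a6-203 is left out (open circles, 7.0 to 7.8 TPM), while Slc26a3 and Slc26a5 lie below 0.3 TPM.

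The level of Slc26a6 depended on a short transcript that is annotated far from the rest of the gene. The main body of Slc26a6 was represented by Slc26a6-206 (2725 bases, 18 exons, 108854043 to 108862143) and Slc26a6-202 (1985 bases, 18 exons, 108854135 to 108862143). Both hold the same 1886 coding bases and differ in the first exon, which is 792 bases long in Slc26a6-206 and 52 in Slc26a6-202 and holds no coding base in either. The annotation tags both as having no known 3′ end. Slc26a6-203 (418 bases, 2 exons, 108912410 to 108913049) starts 50266 bases beyond the end of Slc26a6-206 and is tagged as having no known 5′ end. Of its 418 bases, 149 are coding. Slc26a6-201 joins the main body to that distant place, because its exon 20 holds only the first 27 bases of the last exon of Slc26a6-206 and is followed by exon 21 (108912363 to 108912558), within which exon 1 of Slc26a6-203 lies. The ends are shown because they set these transcripts apart. In the sequences of Slc26a6-206 exon 18 (chr9:108862082-108862143) and of the Slc26a6-201 junction (GENCODE M21, plus strand, 5′ to 3′), capitals mark the bases that the 2 share, and the lower case shows where they part. Exon 1 of Slc26a6-203 (chr9:108912410-108912546, plus strand) is coding throughout.
Slc26a6-206 exon 18: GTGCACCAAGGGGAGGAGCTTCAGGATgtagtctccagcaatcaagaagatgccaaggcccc
Slc26a6-201 exon 20 joined to the start of exon 21: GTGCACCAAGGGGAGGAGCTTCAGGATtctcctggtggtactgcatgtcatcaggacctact
Slc26a6-203 exon 1: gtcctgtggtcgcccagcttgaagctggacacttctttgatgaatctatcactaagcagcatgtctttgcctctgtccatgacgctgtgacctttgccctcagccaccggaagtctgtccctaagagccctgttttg

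Slc26a6-203 held 13.5%, 15.1% and 17.2% of the counts of Slc26a6 in Slc13a4+/- mice and 15.9%, 14.8% and 14.8% in wild-type mice. Its mean effective length was 266 bases, against 2573 for Slc26a6-206, so that on the TPM scale it held 61.2% of the gene on average. Of its sequence, 72.2% of the 31-mers (stretches of 31 bases) occurred in no other transcript of the tables, and 0% occurred in a transcript of another gene. Its own level was 10.6, 12.1 and 14.2 TPM in Slc13a4+/- mice and 12, 11.4 and 10.7 TPM in wild-type mice. Without Slc26a6-203 the level of Slc26a6 was 7.64, 7.52 and 7.80 TPM in Slc13a4+/- mice and 7.0, 7.76 and 7.1 TPM in wild-type mice. That is 1.89-fold above Slc26a2 and higher in 6 of 6 mice, so the place at the head of the family was kept at a smaller distance. Its rank by mean TPM among all 35523 genes was 7889 with the short transcript and 10828 without it. Slc26a6-201 took 0%, 6.06% and 5.28% of the counts in Slc13a4+/- mice and 5.02%, 3.16% and 6.69% in wild-type mice. Whether Slc26a6-203 and the main body come from the same RNA was not tested.

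**Figure D2:**
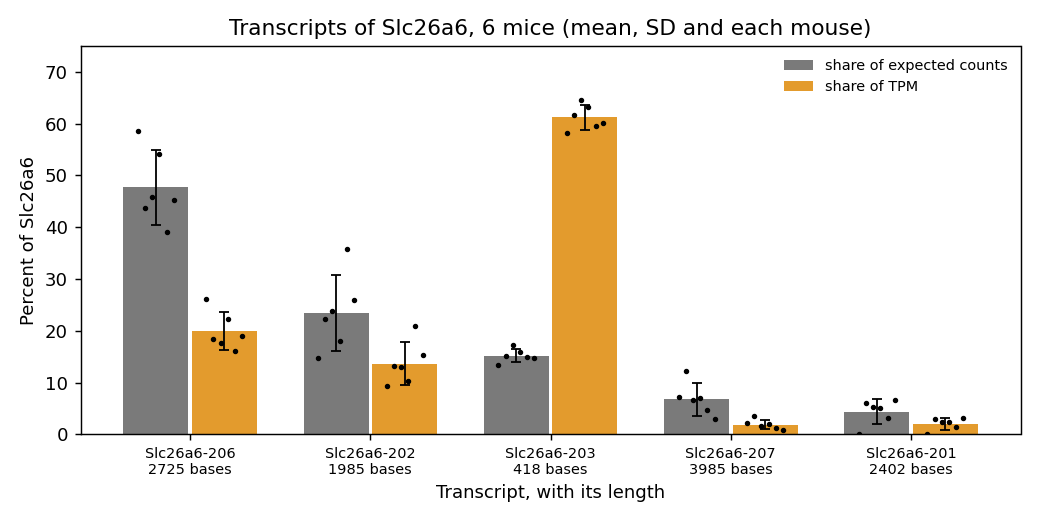
Percent of Slc26a6 held by each of 5 of its transcripts, as a share of expected counts (grey) and of TPM (orange), with the mean and SD over 6 mice and a point for each mouse. Slc26a6-203, the shortest at 418 bases, holds 15.2% of the counts and 61.2% of the TPM, while Slc26a6-206 holds 47.7% and 20.0%.

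Slc26a6-206 and Slc26a6-202 shared most of their sequence, with 1.0% and 0% of their 31-mers in no other transcript, so the split between them rests on the first exon. Slc26a6-206 took 49.3% ± 8.1 of the counts in Slc13a4+/- mice and 46.2% ± 7.6 in wild-type mice (SD, n = 3 each). Slc26a6-202 took 20.3% ± 4.8 in Slc13a4+/- mice and 26.5% ± 8.9 in wild-type mice. The groups overlapped for both shares (exact permutation test, p = 0.6 and 0.4, where 0.1 is the smallest p that 3 against 3 mice allow).

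Of the 53 transcripts of the family, 36 had counts in some mouse and 20 in every mouse. Those that held at least 10% of the counts of their gene numbered 14, and 7 genes had a single such transcript. Slc26a5-201 held all the counts of Slc26a5, and its other 4 annotated transcripts had none. Slc26a4-201 held at least 98.8% of Slc26a4 and Slc26a7-201 at least 96.9% of Slc26a7 in each mouse. Slc26a2-202 held 95.9% and Slc26a11-201 94.6% on average. Each of these is the protein-coding form that spans nearly the whole gene. Slc26a1-201 held 86.9%, 80.02% and 100% of Slc26a1 in Slc13a4+/- mice and 100%, 100% and 80.9% in wild-type mice, with the rest in Slc26a1-204, which has the same 2112 coding bases and no 31-mer of its own (0%). The jumps between 0 and about 20% for Slc26a1-204 did not follow genotype. Slc26a8-201 held 82.0% of the counts of Slc26a8 but 52.6% of its TPM, because the short noncoding transcripts Slc26a8-204 and Slc26a8-207 took 21.4% and 17.0% of the TPM.

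Slc26a3 was divided between the coding form Slc26a3-201 and the retained-intron transcript Slc26a3-204. Slc26a3-201 held 92.1%, 74.8% and 92.8% of the counts in Slc13a4+/- mice and 69.6%, 63.0% and 94.99% in wild-type mice. Slc26a3-204 held 7.90%, 25.2% and 7.18% in Slc13a4+/- mice and 26.1%, 30.3% and 5.01% in wild-type mice. The groups overlapped, and the share of Slc26a3-204 rests on 1.05 to 6.05 expected counts in a mouse.

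A minor coding form of Slc26a8, named here after its values were seen, fell below the 10% limit. Slc26a8-205 lacks exons 6 and 7 of Slc26a8-201, which have 165 and 150 bases. Its exon 2 is also shorter, with 187 bases against 196 in Slc26a8-201. It had 7.69, 7.54 and 7.74 expected counts in Slc13a4+/- mice and 0, 0 and 0 in wild-type mice. Only 1.63% of its 31-mers were in no other transcript, and the deposited counts are estimates, so these values carry an error that the spread between mice does not show. Because of exon 2 they do not measure the missing exons alone. How many of all transcripts with so few counts separate the groups in this way was not counted.

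Slc26a10 was divided mainly between a coding and a noncoding transcript. Slc26a10-201 (2215 bases, 18 exons) is its main coding form. Slc26a10-204 (3600 bases, 17 exons) is annotated as a retained-intron transcript with no coding region, and keeps an intron of 415 bases (chr10:127174391-127174805) between exons 10 and 11 of Slc26a10-201. The last exon differs as well, with 1184 bases in Slc26a10-204 and 151 in Slc26a10-201. Of that longer exon, 1066 bases are also the last exon of Slc26a10-205, a coding form without the kept intron. The counts of Slc26a10-204 therefore do not measure the kept intron alone. The junction is shown because the letters after it separate a read across it of Slc26a10-201 from a read of Slc26a10-204. Capitals mark the end of exon 10, which both transcripts share (minus strand, 5′ to 3′). The lower case is the start of exon 11 in Slc26a10-201 and the start of the kept intron in Slc26a10-204 (chr10:127174776-127174835).
Slc26a10-201 exon 10 to exon 11: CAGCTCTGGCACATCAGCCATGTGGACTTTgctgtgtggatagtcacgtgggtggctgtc
Slc26a10-204 exon 10 at the same place: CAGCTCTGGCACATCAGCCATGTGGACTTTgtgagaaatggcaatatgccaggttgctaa

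Slc26a10-204 held 55.2%, 39.9% and 39.3% of the counts of Slc26a10 in Slc13a4+/- mice and 22.8%, 18.8% and 38.5% in wild-type mice. Each Slc13a4+/- mouse was above each wild-type mouse, although wild-type mouse Nas2Del_WT_1026 lay within 1 percentage point of the lowest of them. The exact permutation test gave p = 0.1, which is the smallest that 3 against 3 mice allow, and an adjusted p of 0.7 over the 7 shares compared. This was the only share of the 7 in which the groups did not overlap, where 12.7% of all transcript shares between 10% and 90% showed no overlap. Of the retained-intron shares in that range, 13% were higher in each Slc13a4+/- mouse than in each wild-type mouse. Retained-intron transcripts as a whole took 2.02%, 2.44% and 2.14% of all counts in Slc13a4+/- mice and 1.85%, 2.0% and 1.8% in wild-type mice, and the part of this in the share of Slc26a10-204 was not tested. In expected counts Slc26a10-204 overlapped between the groups, at 73.7, 42.2 and 48.7 in Slc13a4+/- mice and 23.8, 18.4 and 60.7 in wild-type mice. In edgeR this was a log2 fold change of 0.58 (SE 0.44, adjusted p = 0.753). Slc26a10-201 had 55.4, 62.7 and 72.1 counts in Slc13a4+/- mice and 76.8, 54.3 and 95.8 counts in wild-type mice, with a log2 fold change of -0.38 (SE 0.23, adjusted p = 0.701 in edgeR).

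**Figure D3:**
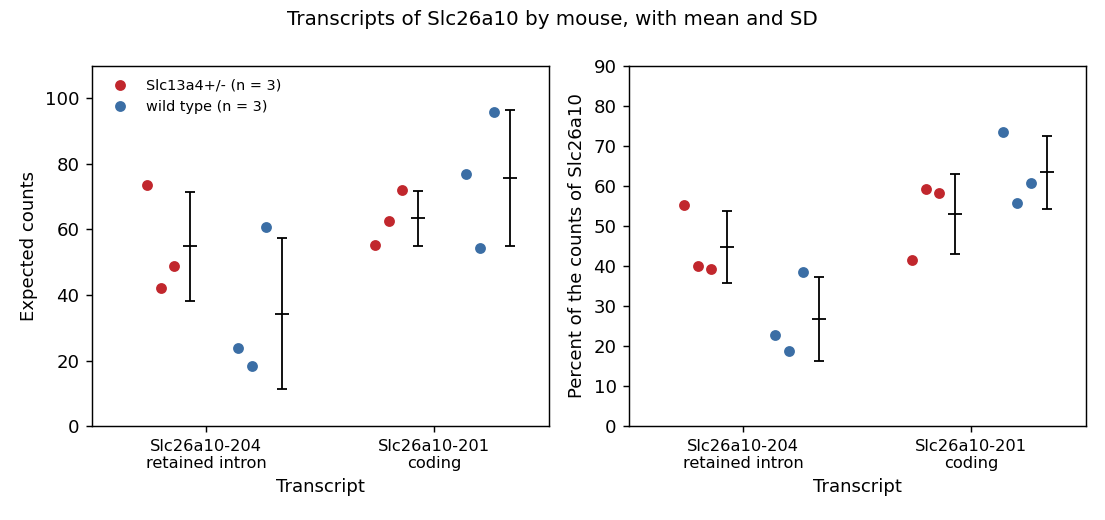
Expected counts (left) and percent of the counts of Slc26a10 (right) of its retained-intron and coding transcripts in each mouse, with Slc13a4+/- mice (red) left of wild-type mice (blue) and the mean and SD beside the points. As a share, Slc26a10-204 was at 39.3% or more in Slc13a4+/- mice and at 38.5% or less in wild-type mice, whereas its counts overlapped.

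The last exon of Slc26a10-204 also runs into B4galnt1, a ganglioside synthesis gene on the opposite strand, with which Slc26a10 shares 715 exon bases. Of the 31-mers of Slc26a10-204, 19.2% are the reverse of a stretch of another transcript, against 0% for Slc26a10-201. B4galnt1 was at 64.7 ± 1.3 CPM in Slc13a4+/- mice and 66.4 ± 1.2 CPM in wild-type mice (SD, n = 3 each). Per length it averaged 64.9 TPM, against 1.63 TPM for Slc26a10. The libraries were stranded, but whether the quantification used the strand is not stated in the sources at hand, and the part of B4galnt1 reads in Slc26a10-204 was not tested. Idua, which encodes a lysosomal enzyme, contains the whole of Slc26a1 on the opposite strand, with 141 exon bases in common. It was at 6.99 ± 0.37 CPM in Slc13a4+/- mice and 6.38 ± 0.22 CPM in wild-type mice (log2 fold change 0.13, adjusted p = 0.605 in edgeR). Slc26a3 overlaps the processed pseudogene Gm9359, which had 0 counts in all mice. Slc26a11 overlaps no gene but starts 20 bases from Sgsh, the lysosomal heparan sulfatase gene, which runs the other way and was at 5.21 ± 0.13 CPM in Slc13a4+/- mice and 5.13 ± 0.73 CPM in wild-type mice.

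No SLC26 gene passed the test for a difference between Slc13a4+/- and wild-type mice. All 10 were tested, and 0 passed an adjusted p of 0.1 in edgeR, where 0.00585% of all tested genes did (1 gene). In DESeq2, 0 of 10 passed, where 0.487% of genes did. The smallest adjusted p among the members was 0.637 in edgeR (Slc26a2) and 0.949 in DESeq2 (Slc26a4). No member had an unadjusted p under 0.05 in either tool (0 of 10). In edgeR 9.15% of all tested genes did, a share too small for 0 of 10 to set the family apart. The log2 fold change was above 0 for 9 members and below 0 for 1, with a median of 0.08, beside -0.0045 for all tested genes, of which 47.8% were above 0.

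Slc26a2 was at 14.5, 15.1 and 12.9 CPM in Slc13a4+/- mice and 13.9, 12.6 and 12.7 CPM in wild-type mice. The groups overlapped, and its fold change lay between 0.970 and 1.22 (95% interval, edgeR). Slc26a11 had a fold change between 0.883 and 1.15, from 4.60, 4.63 and 4.33 CPM in Slc13a4+/- mice and 4.66, 4.67 and 4.15 CPM in wild-type mice. Slc26a1 was at 1.35, 1.46 and 1.18 CPM in Slc13a4+/- mice and 1.43, 1.26 and 1.23 CPM in wild-type mice, with a fold change between 0.812 and 1.28. For the 3 sulfate transporters of the family a change above 1.5-fold either way therefore lay outside the interval.

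Slc26a6 was the only member whose CPM values did not overlap, at 10.1, 10.2 and 10.4 CPM in Slc13a4+/- mice and 9.76, 9.98 and 9.28 CPM in wild-type mice. Such a separation was seen in 15% of all tested genes, and the log2 fold change of Slc26a6 was 0.08 (SE 0.06, adjusted p = 0.685 in edgeR). Without retained-intron transcripts it was 0.03 (SE 0.06). The retained-intron transcript of the gene, Slc26a6-207, named after its values were seen, had 56.1, 85.6 and 50.9 expected counts in Slc13a4+/- mice and 45.4, 28.1 and 20.8 in wild-type mice (log2 fold change 0.87, SE 0.42, adjusted p = 0.671 in edgeR). These counts are not scaled for depth. As a share of the counts of Slc26a6 the groups overlapped, at 7.14%, 12.2% and 6.57% in Slc13a4+/- mice and 6.99%, 4.66% and 2.87% in wild-type mice. Slc26a4 was at 2.59, 2.75 and 2.38 CPM in Slc13a4+/- mice and 2.04, 2.27 and 2.53 CPM in wild-type mice, with a log2 fold change of 0.17 (SE 0.12). Wild-type mouse Nas2Del_WT_1026 lay within the range of the Slc13a4+/- mice for this gene and the other wild-type mice below it. Slc26a8 was at 2.56, 2.81 and 2.58 CPM in Slc13a4+/- mice and 2.60, 2.38 and 2.49 CPM in wild-type mice, a log2 fold change of 0.09 (SE 0.10). Slc26a10 was the only member with a negative value in edgeR, at -0.09 (SE 0.14), from 1.71, 1.53 and 1.66 CPM in Slc13a4+/- mice and 1.56, 1.62 and 2.03 CPM in wild-type mice. When retained-intron transcripts were left out, its log2 fold change was -0.49 (SE 0.17, adjusted p = 0.562 in edgeR).

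**Figure D4:**
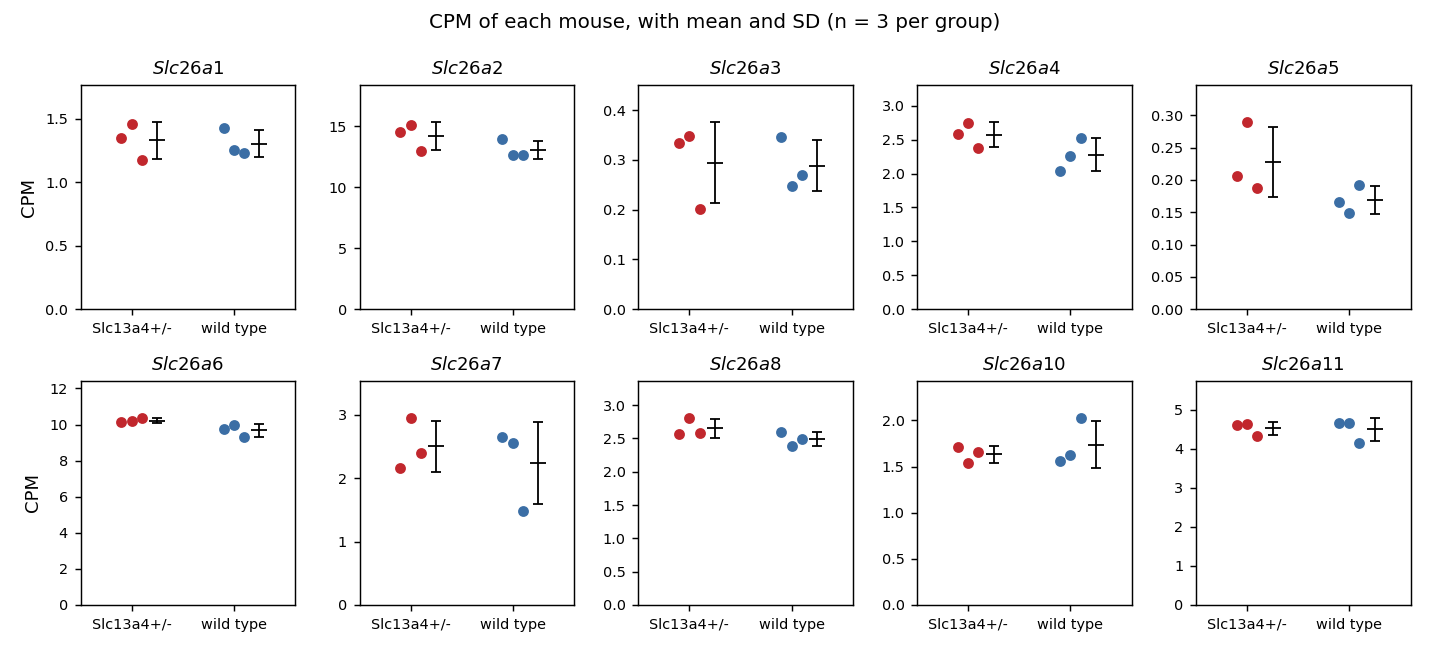
CPM of each SLC26 gene in each mouse, with Slc13a4+/- mice (red) left of wild-type mice (blue) and the mean and SD (n = 3) beside them, each panel on its own linear axis from 0. The groups overlap in 9 of the 10 panels, and for Slc26a7 wild-type mouse Nas2Del_WT_1026 lies alone at 1.49 CPM.

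With all transcripts of a gene counted, the data allow larger differences for 3 members. Slc26a7 was at 2.16, 2.95 and 2.41 CPM in Slc13a4+/- mice and 2.66, 2.56 and 1.49 CPM in wild-type mice, and its log2 fold change of 0.17 (SE 0.22) rested on wild-type mouse Nas2Del_WT_1026. Without that mouse it was -0.06, while against that mouse as the only wild type it was 0.77, a value with no spread between wild-type mice behind it. Slc26a5 was at 0.206, 0.289 and 0.187 CPM in Slc13a4+/- mice and 0.165, 0.149 and 0.192 CPM in wild-type mice, with the largest log2 fold change of the family (0.41, SE 0.31) and a fold interval from 0.820 to 2.15. Slc26a3 was at 0.335, 0.347 and 0.201 CPM in Slc13a4+/- mice and 0.346, 0.248 and 0.269 CPM in wild-type mice, with a log2 fold change of 0.03 (SE 0.30) and a fold interval from 0.640 to 1.63. Without retained-intron transcripts the log2 fold change of Slc26a3 was 0.22 (SE 0.32). The remaining 7 had 95% intervals inside a 1.5-fold change in either direction when all transcripts were counted. For Slc26a10, which is among them, this does not extend to the coding forms. Without retained-intron transcripts its log2 fold change was -0.49 (SE 0.17), further from 0, and for Slc26a10-201 alone it was -0.38 (SE 0.23). Of the transcripts of the family, 21 had enough counts to be tested, and 0 passed an adjusted p of 0.1 in edgeR, where 0.00544% of all 55196 transcripts did. The smallest adjusted p of the 21 was 0.671 in edgeR, that of Slc26a6-207.

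**Figure D5:**
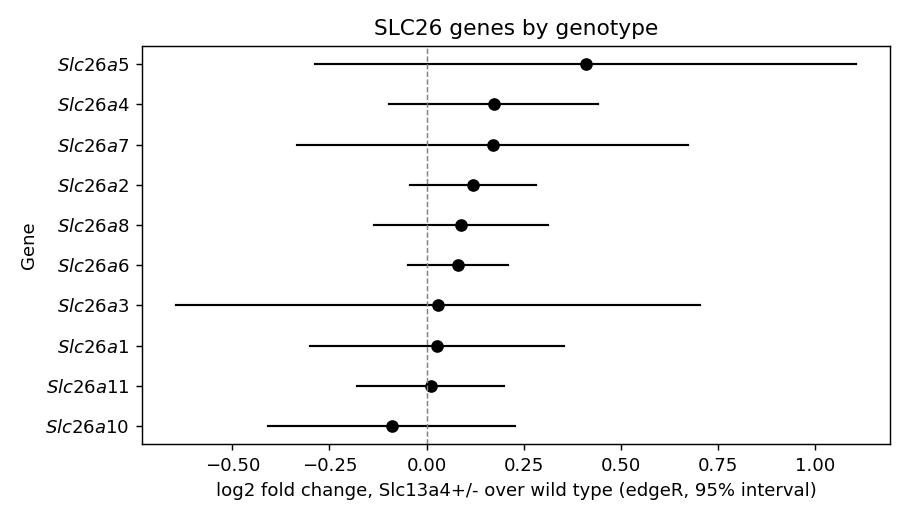
Log2 fold change of each SLC26 gene, Slc13a4+/- over wild type, with its 95% interval from edgeR, from the highest value at the top to the lowest. The interval crosses 0 for each gene, and is widest for Slc26a5 and Slc26a3, which had 26 counts or fewer in each mouse.

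Genes that work beside the SLC26 exchangers were taken as lists. Of the 10 SLC4 bicarbonate transporters, 5 were above 0 and 5 below, and the median was -0.00089 on the log2 scale, beside -0.0045 for all tested genes. None passed the adjusted threshold in edgeR or DESeq2, and Slc4a7, a sodium bicarbonate cotransporter, was the only one with an unadjusted p under 0.05 (log2 fold change 0.21, SE 0.05, adjusted p = 0.499 in edgeR). Slc4a10 and Slc4a4, further sodium-coupled bicarbonate transporters that are named after their values were seen, averaged 151 and 90.3 TPM, above the level of each SLC26 gene. The list of SLC26 partners holds the chloride channel Cftr, scaffold proteins, carbonic anhydrases and kinases. Of its 12 genes, 11 were tested, with 4 above 0, 7 below and a median of -0.03. Of these only Car2, a cytosolic carbonic anhydrase that oligodendrocytes and choroid plexus express, had an unadjusted p under 0.05 (log2 fold change -0.16, SE 0.05, adjusted p = 0.499 in edgeR). The 10 oligodendrocyte markers summed to 8052 to 9357 TPM in Slc13a4+/- mice and 8973 to 9847 TPM in wild-type mice. Of their log2 fold changes 10 of 10 were below 0, and their part in the value of Car2 was not tested. Of the 9 genes for the activation and use of sulfate, such as Papss1, which makes the sulfate donor PAPS, 2 were above 0 and 7 below, with a median of -0.02 and 0 with an unadjusted p under 0.05.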

How the data were processed

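The deposited tables hold, for each transcript, the expected counts and TPM that the authors obtained from paired-end 76-base reads of stranded, rRNA-depleted libraries with Salmon (v1.2.0, mapping validation and GC bias correction). TPM sums to 1000000 in each mouse. The effective length stands beside them. The transcript set of the index is not stated in the sources at hand. Identifiers without version were matched to GENCODE M21, which placed 115973 of 117135 transcripts (115410 with the same version), and 52 of the 53 SLC26 transcripts had the annotated length. The other 1162, with no more than 0.645% of any library, were not used here.

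Gene values were the sum of the expected counts of their transcripts, rounded, and the sum of their TPM, unrounded. edgeR (4.0.16, R 4.3.3) was run with its default low-count filter, TMM and the quasi-likelihood test, and DESeq2 (1.42.0), the tool the study names, as a Wald test with average transcript lengths as offsets. P-values were adjusted by Benjamini-Hochberg over all features tested, and a threshold of 0.1 was taken from the study. The scripts were tested on simulated data. Neighbouring levels were compared by exact sign-flip tests, and transcript shares by exact permutation tests, all two-sided. Every member is named, as are genes that overlap a member, transcripts with at least 10% of the counts of a member, and up to 4 genes per list with an unadjusted p under 0.05, of which some are printed. Sgsh was added for its place. The members and lists were chosen with earlier results of these data known. Alternatives were other tools (limma 3.58.1), normalizations, filters, transcript sets and samples. Python 3.11.15 was used for joins and plots.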

Additional observations from a re-analysis of the deposited data

How the results depend on the processing

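No SLC26 gene passed the adjusted threshold under any of the 18 alternatives tried for genes, and no SLC26 transcript under the 9 tried for transcripts. The smallest adjusted p of a member was 0.163, for Slc26a7 with a covariate for the run of animal numbers (Nas2Del_WT_1016 and Nas2Del_WT_1018 against the other 4). Since both are wild type, that fit sets the 3 Slc13a4+/- mice against Nas2Del_WT_1026 alone, and its p takes the spread of wild-type mice from Nas2Del_WT_1016 and Nas2Del_WT_1018. Of 180 values of a member under an alternative, 167 kept their direction. Slc26a3 turned to -0.11 in DESeq2 with length offsets and in edgeR with length offsets, and to -0.0017 in limma voom. Leaving out 1 mouse at a time, the log2 fold change ranged from -0.10 to 0.25 for Slc26a3, from -0.045 to 0.11 for Slc26a1, from -0.062 to 0.32 for Slc26a7, from -0.16 to 0.040 for Slc26a10 and from -0.044 to 0.042 for Slc26a11. The other 5 kept their sign, but not their size. They ranged from 0.21 (without Nas2Del_Het_1025) to 0.54 for Slc26a5, from 0.072 (without Nas2Del_Het_1025) to 0.18 (without Nas2Del_Het_1027) for Slc26a2, from 0.11 (without Nas2Del_WT_1016) to 0.26 for Slc26a4, from 0.051 (without Nas2Del_WT_1026) to 0.10 for Slc26a6 and from 0.046 (without Nas2Del_Het_1025) to 0.13 for Slc26a8, which was at 0.059 without Nas2Del_WT_1018. With the covariate Slc26a4 was at 0.025.

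The count over all genes was far less stable than these. It was 1 in edgeR, 86 in DESeq2 with length offsets, 55 in DESeq2 without them, 0 in edgeR with length offsets, 147 with no low count filter, 28 with Nas2Del_WT_1026 as the only wild-type mouse and 143 with the covariate, which also rests on that 1 wild-type mouse. It ranged from 1 to 223 when 1 mouse was left out, with 223 without Nas2Del_WT_1026. The cause was not tested. Pairs of neighbouring levels in the same order in every mouse numbered 4 to 6 under the alternatives. The setting without Slc26a6-203 was chosen after seeing the data. No paired analysis was possible because the groups share no replicate number. Members with fewer than 30 counts in a mouse, Slc26a3 and Slc26a5, are limited by depth, and with 3 mice per group small differences could not be shown for any member.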
